A study of Mus musculus with 20 samples.

Results

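Aphidicolin, an inhibitor of the replicative DNA polymerases, was set against mock culture in paternal pronuclei of WT mouse zygotes. A pronucleus holds the genome of 1 parent in the fertilised egg before the first cleavage, and the paternal one forms from the sperm. The comparison takes 4 of the 20 bisulfite libraries of the series, chosen by their labels: 2 of aphidicolin-treated and 2 of mock zygotes. Treated zygotes were placed in medium with 3 µg/ml aphidicolin at 5 hours post-fertilization, and mock zygotes were not. In both groups pronuclei were taken out at 12 hours and frozen at 13 hours. All these zygotes came from superovulated WT females aged 7 to 10 weeks, labelled f/f (both gene copies floxed, without the Cre of the CKO females, which are labelled Zp3-Cre, f/-). The oocytes were fertilised in vitro with sperm of adult C57BL/6J males, so both groups share a C57BL/6J paternal genome. Libraries were typically made from about 20 pooled pronuclei with 21 PCR cycles, and parental origin was judged by eye, from pronuclear size and the distance to the second polar body. The labels do not say whether replicates came from separate collections, so the spread between them may be technical.

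Sperm DNA is heavily methylated outside CpG islands, and much of that methylation disappears from the paternal genome within the first cell cycle. Oxidation of 5-methylcytosine by Tet3, a dioxygenase supplied by the oocyte, and dilution at replication, when the new strand is made without the mark, are both known to take part. A replication block asks how much of the loss occurs when the new strand cannot be made. Bisulfite reads 5-hydroxymethylcytosine, the first oxidation product, as methylated, so the values below are the sum of both marks.

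Methylation was read by reduced representation bisulfite sequencing, which samples CpG-rich fragments cut by MspI. The aphidicolin libraries held 22431861 and 46562583 CpG calls and the mock libraries 37303719 and 65480095. Autosomal positions read at least 5 times in each of the 4 libraries numbered 350819, and their median depth was 21 and 44 reads in the aphidicolin libraries and 38 and 54 reads in the mock libraries. Mitochondrial DNA took 3.02% and 4.19% of calls with aphidicolin and 1.57% and 1.70% in mock. The mock files also list their chromosomes in another order than the aphidicolin files, so any difference in how they were made cannot be told apart from the treatment. As a check of parental origin, 786 tiles methylated in oocytes but not in sperm averaged 6.79% and 5.45% in the aphidicolin libraries and 4.11% and 5.25% in the mock libraries, against 81.7% to 93.4% in the 4 WT maternal libraries.

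Printed first are promoters that sperm carries methylated and whose aphidicolin libraries both lay above both mock libraries, so that the CpG sites behind the values can be seen. None of them passed the adjusted test given with their values. Trp73 encodes the p53 family member p73, Proz the plasma protein Z, Acta1 skeletal muscle actin and Osbpl7 an oxysterol-binding protein family member. Each run is the 250 bases before a RefSeq start of the gene (GRCm38.p6), on the gene's strand. The capitals mark the CpG sites read in all 4 libraries. Some genes have several starts in RefSeq, and whether those printed are the main ones was not tested. The windows lie at chr4:154097174-154097423 on the minus strand (Trp73), chr8:13060658-13060907 on the plus strand (Proz), chr8:123894776-123895025 on the minus strand (Acta1) and chr11:97050570-97050819 on the plus strand (Osbpl7). They were picked after their values were seen, as the characterised genes with at least 4 such sites and the largest differences. Tmem267, with 12 such sites, had a difference of 13.1 points and is described with the others but not printed.
Trp73: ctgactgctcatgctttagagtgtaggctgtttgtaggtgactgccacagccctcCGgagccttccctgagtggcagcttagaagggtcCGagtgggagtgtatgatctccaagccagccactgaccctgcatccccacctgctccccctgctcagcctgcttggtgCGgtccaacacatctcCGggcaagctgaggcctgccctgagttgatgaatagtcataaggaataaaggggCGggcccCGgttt
Proz: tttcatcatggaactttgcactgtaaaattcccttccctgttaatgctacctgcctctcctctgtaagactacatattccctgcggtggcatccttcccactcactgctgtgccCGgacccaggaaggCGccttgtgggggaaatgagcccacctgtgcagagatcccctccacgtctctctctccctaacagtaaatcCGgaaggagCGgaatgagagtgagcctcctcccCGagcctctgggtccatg
Acta1: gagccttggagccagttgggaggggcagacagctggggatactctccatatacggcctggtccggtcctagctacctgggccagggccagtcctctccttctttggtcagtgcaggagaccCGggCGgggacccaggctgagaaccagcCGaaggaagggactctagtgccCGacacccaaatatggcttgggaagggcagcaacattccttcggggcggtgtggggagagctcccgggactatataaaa
Osbpl7: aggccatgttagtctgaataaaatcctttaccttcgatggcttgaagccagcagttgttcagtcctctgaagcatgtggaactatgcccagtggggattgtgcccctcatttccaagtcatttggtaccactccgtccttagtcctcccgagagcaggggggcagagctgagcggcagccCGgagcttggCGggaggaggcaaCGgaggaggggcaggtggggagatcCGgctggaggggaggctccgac

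Over all autosomal positions, mean methylation was 18.7% and 18.4% in the aphidicolin libraries and 11.1% and 12.4% in the mock libraries. The groups did not overlap, and means were 18.6% ± 0.24 with aphidicolin and 11.7% ± 0.94 in mock (SD, n = 2 each). The difference was 6.86 points, between 6.03 and 7.69 for single pairs of libraries, with an exact two-sided permutation p of 0.33, the smallest that 2 against 2 libraries can give. That limit holds for every mean tested here between these 2 groups. Most positions were unmethylated in sperm to begin with, so the mean over all of them mixes places with and without methylation to lose.

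The mean difference was largest in tiles that sperm carried methylated. In the 15165 tiles of 1000 bp with at least 75% methylation in both sperm libraries, the aphidicolin libraries averaged 92.6% and 94.4% and the mock libraries 54.2% and 58.4%. Sperm averaged 95.9% over the same tiles. Means were 93.5% ± 1.28 with aphidicolin and 56.3% ± 2.97 in mock (SD, n = 2 each). Aphidicolin exceeded mock by 37.3 points, and by 34.3 to 40.3 points for single pairs of libraries (exact permutation p = 0.33). Both groups stood far apart relative to the spread within each. The 13233 sperm-methylated tiles of 100 bp gave 93.3% ± 1.39 with aphidicolin and 55.9% ± 2.99 in mock.

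Tiles that oocytes carried methylated or unmethylated had like means. Tiles methylated in sperm only numbered 6590, with 93.0% under aphidicolin and 55.1% in mock, and the 5565 tiles methylated in both gametes had 94.2% under aphidicolin and 55.7% in mock. Sperm-methylated tiles at intermediate levels in oocytes kept somewhat more in mock: 93.3% with aphidicolin and 60.4% in mock at 25% to 50% in oocytes (918 tiles), and 93.3% with aphidicolin and 61.9% in mock at 50% to 75% (753 tiles). Tiles methylated in oocytes only stayed low, with 6.78% and 5.98% in the aphidicolin libraries and 4.60% and 5.83% in the mock libraries. The 23438 tiles unmethylated in both gametes had 3.60% and 2.72% with aphidicolin and 2.44% and 3.03% in mock, and there the groups overlapped.

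Sorted by their level in sperm, tiles showed a gap that widened as there was more methylation to lose. At 25% to 50% in sperm (1599 tiles) the means were 31.5% with aphidicolin and 20.8% in mock. At 50% to 75% (1370 tiles) they were 56.0% and 36.6% in the same order. At 95% to 100% (11913 tiles) they were 95.1% with aphidicolin and 56.4% in mock. The mock level as a share of the aphidicolin level was 76.9% for tiles of 5% to 10% in sperm, 69.1% at 10% to 25%, and 66.2%, 65.4% and 65.3% in the next bins, then 62.0% at 90% to 95% and 59.4% above that. In every bin from 5% in sperm upward, each aphidicolin library lay above both mock libraries.

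**Figure D1:**
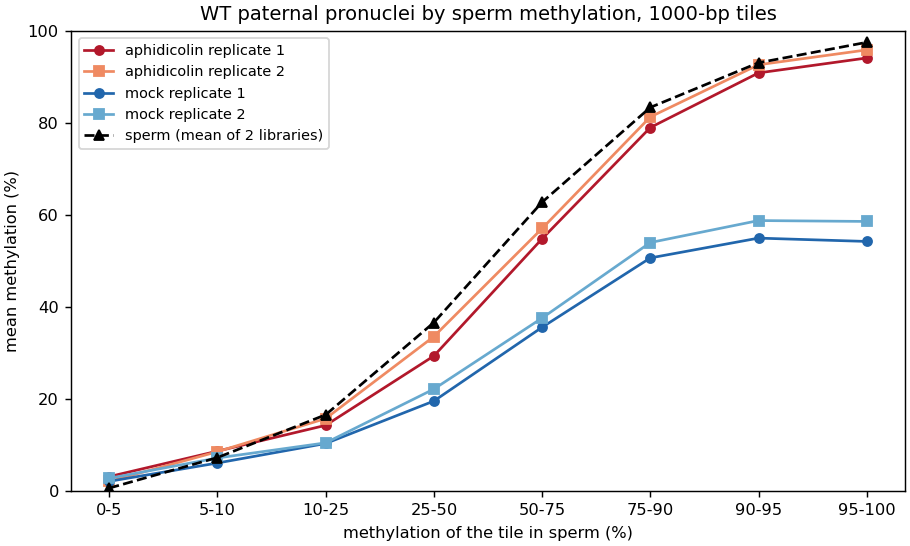
Mean methylation (%) of each WT paternal pronuclear library, and of sperm, over 1000-bp tiles grouped by their methylation in sperm (%). Aphidicolin libraries follow sperm up to 95.1% on average in the highest bin, and mock libraries level off, at 56.4% there.

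Tile by tile, the libraries of the treatments had different shapes. Most sperm-methylated tiles were near full methylation in the aphidicolin libraries, with 75.4% and 79.7% of tiles at 95% or more, against 25.1% and 13.8% in the mock libraries. Near-empty tiles (5% or less) made up 0.870% and 0.488% with aphidicolin and 21.5% and 8.68% in mock. Tiles of 20% to 80% were 13.5% and 10.7% of the total with aphidicolin and 43.6% and 60.8% in mock. The mock libraries also differed from each other: the first had more tiles at either end and the second more in between. Their median depth was 38 and 54 reads per position. By the dispersion fitted in the tile test below, the median sperm-methylated tile carried the information of 2.40 independent calls per library. How far such coarse sampling shaped the shares of near-empty, intermediate and near-full tiles was not tested. In pooled pronuclei, an intermediate tile may mix full and empty pronuclei or full and empty strands of each, and these cannot be told apart.

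**Figure D2:**
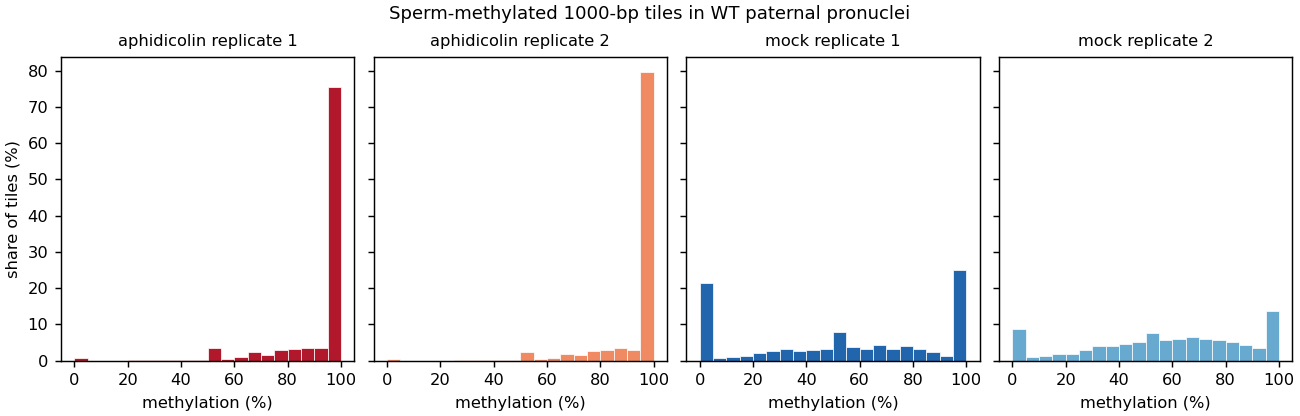
Share of the 15165 sperm-methylated 1000-bp tiles (%) by methylation level in steps of 5 points, 1 panel for each WT paternal library. The aphidicolin panels have 1 tall bar at the upper end; the mock panels spread over the whole range, with 21.5% and 8.68% of tiles at 5% or less.

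Single tiles were noisy in mock. The median absolute difference between the 2 libraries of a group was 0 points with aphidicolin and 26.8 points in mock. Across sperm-methylated tiles Pearson's r between libraries was 0.151 with aphidicolin and 0.241 in mock, a description over 15165 tiles that share library, depth and base composition. Both aphidicolin libraries lay above both mock libraries, with group means at least 10 points apart, in 9014 of the 15165 tiles (59.4%). Of all 45790 tiles, 23.2% met that rule. Both lay below, with the same distance of means, in 68 (0.448%), against 1.5% of all tiles. In 550 tiles (3.63%) both mock libraries held at most 10%, and in 1184 (7.81%) both held at least 90%. The CKO paternal libraries, which had no part in choosing these tiles, gave a separate reading of them. In mock CKO pronuclei the 550 tiles averaged 57.0% and 61.1%, the 1184 tiles 78.8% and 80.9%, and all sperm-methylated tiles 64.4% and 67.4%. The order of the 3 sets was thus the same in each CKO mock library. Both WT aphidicolin libraries had that order too, with 86.6% and 91.8% in the 550, 96.0% and 96.5% in the 1184 and 92.6% and 94.4% in all. CKO aphidicolin libraries had 92.4% and 94.7% in the 550, 94.0% and 96.6% in the 1184 and 92.0% and 95.8% in all. There the order held in the second library and not in the first. The 550 low tiles were also shallower, with a median of 71.8 calls per library against 116 in the 1184 and 121.5 in all, and depth's part in this was not tested.

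The gap was present on every autosome. Over the 19 autosomes, with 439 to 1258 sperm-methylated tiles each, group means ran between 92.4% (chromosome 10) and 94.3% (chromosome 1) with aphidicolin and between 53.7% (chromosome 19) and 58.2% (chromosome 14) in mock. The difference was 35.2 points on chromosome 14, the lowest, and 40.5 points on chromosome 19, the highest. The 15 sperm-methylated tiles of the X chromosome had 90.6% and 91.2% with aphidicolin and 56.2% and 58.4% in mock. In all 225 windows of 10 Mb with at least 20 such tiles, both aphidicolin libraries lay above both mock libraries. Window means ran between 87.3% and 98.0% with aphidicolin and between 47.2% and 72.1% in mock, with differences of 23.8 to 46.2 points.

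At short range, the mock libraries had a structure that the aphidicolin libraries lacked. For 524 pairs of directly adjacent sperm-methylated tiles, r was 0.288 and 0.350 within the mock libraries and 0.247 when one tile was read in 1 mock library and its neighbour in the other. At 2 to 5 kb (1206 pairs) these values were 0.112, 0.233 and 0.137, and at 6 to 20 kb (3700 pairs) 0.0407, 0.00403 and 0.00646. In the aphidicolin libraries, where most tiles sit at 100%, r was -0.0231 and 0.0486 for adjacent tiles and -0.0270 across libraries. These correlations describe pairs of tiles that share local sequence and depth, and neither was adjusted for.

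**Figure D3:**
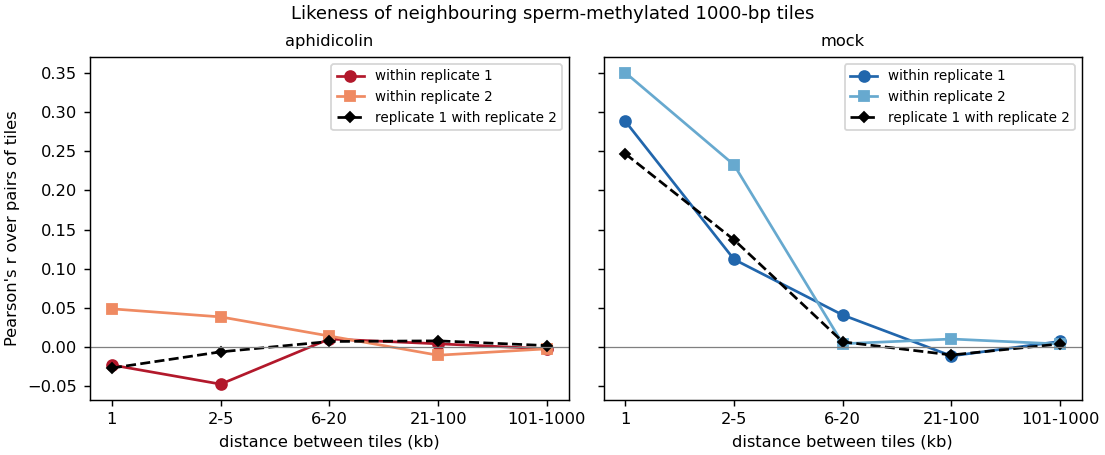
Pearson's r between the methylation of pairs of sperm-methylated 1000-bp tiles against their distance (kb), within each library and between the libraries of a group, for aphidicolin (left) and mock (right). The mock curves start between 0.247 and 0.350 at 1 kb and are under 0.05 from 6 kb on; the aphidicolin curves lie between -0.05 and 0.05.

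Tiles with more CpG positions kept more methylation in mock. Sperm-methylated tiles with 2 or 3 positions (11957 tiles) had 92.6% and 94.5% with aphidicolin and 53.3% and 57.5% in mock. Those with 6 to 9 positions (680 tiles) had 93.0% and 94.1% with aphidicolin and 60.2% and 63.9% in mock. The mock level as a share of the aphidicolin level was 59.2% at 2 or 3 positions, 62.7% at 4 or 5, 66.3% at 6 to 9 and 69.2% at 10 or more (69 tiles). Read depth moved with the mock level too. Tiles were split into 4 nearly equal groups by reads per position. In the group with the fewest reads, means were 91.3% and 93.8% with aphidicolin and 48.0% and 52.0% in mock, and in the group with the most reads they were 93.6% and 95.1% with aphidicolin and 60.5% and 64.5% in mock. Within each of these groups, mock tiles with 4 or more positions lay above those with 2 or 3: 50.8% and 54.0% against 47.5% and 51.6% in the group with the fewest reads, and 63.1% and 67.3% against 59.8% and 63.8% in the group with the most. Depth still varied within each group, most of all in the deepest, and position number was not matched on depth, so the part of depth in the step with position number was not tested.

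**Figure D4:**
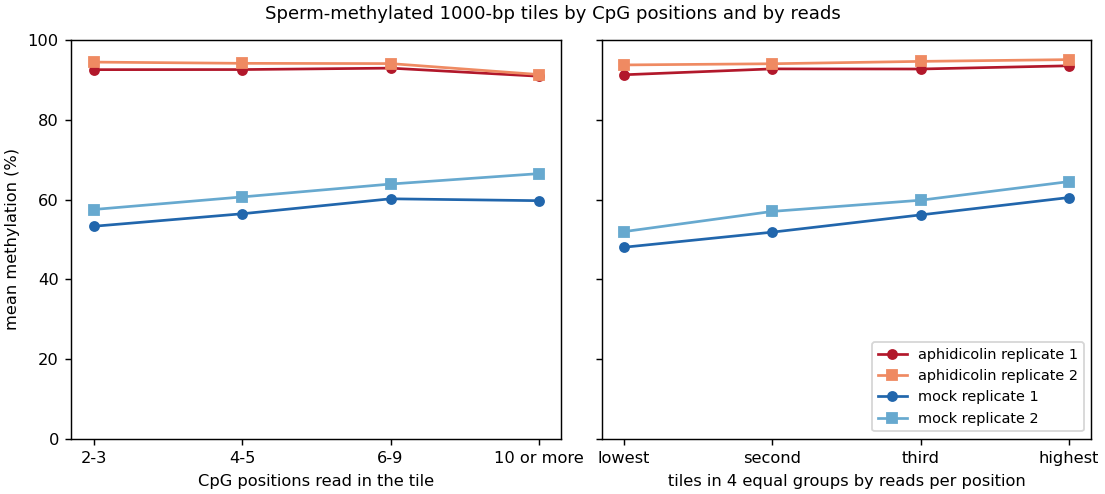
Mean methylation (%) of sperm-methylated 1000-bp tiles in each WT paternal library, by the number of CpG positions read in the tile (left) and by group of reads per position, from lowest to highest (right). Aphidicolin libraries stay between 91.0% and 95.1%, and mock libraries climb in both panels apart from 1 library at 10 or more positions.

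Genes were then named by matching RefSeq promoters (250 bases before to 50 after the start) to the CpG positions of the files, which gave 4860 promoters with at least 2 positions of their own. Most of these, 4811, were at low methylation in sperm, and their means stayed low: 2.16% and 1.24% with aphidicolin and 1.31% and 1.88% in mock. Single promoters among them did not. That of Rab23, which encodes a Rab GTPase and was singled out after its values were seen, had 88.9% and 83.8% with aphidicolin and 26.3% and 55.3% in mock, against 0.40% and 0.22% in sperm. That of Stk17b, a serine/threonine kinase, had 31.4% and 30.7% with aphidicolin and 29.1% and 25.1% in mock, against 0.18% and 0.27% in sperm. In 27 promoters with at least 75% in both sperm libraries, means were 88.3% and 87.6% with aphidicolin and 43.4% and 51.1% in mock, against 94.3% in sperm. The difference was 40.7 points, between 36.5 and 44.9 for single pairs of libraries (exact permutation p = 0.33), near that of sperm-methylated tiles in general. Both aphidicolin libraries lay above both mock libraries in 21 of the 27, against 2.96% of all matched promoters, and below in 1, against 3.68%. Of the 27 genes, 15 have names other than a predicted-gene number. In the quasi-binomial test 27 of the 4860 promoters had an unadjusted p under 0.05, and they are not the same 27. Of them, 11 were sperm-methylated, 12 were low in sperm and 4 had other levels. The test called 0 of the 4860 in either direction after Benjamini-Hochberg adjustment (0.0% each), so the values that follow are descriptions.

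Of the promoters printed above, Trp73 had 100% and 99.8% with aphidicolin and 62.8% and 17.0% in mock over 6 positions. Proz had 100% and 85.7% with aphidicolin and 16.5% and 45.6% in mock. Acta1 had 83.0% and 100% with aphidicolin and 6.86% and 41.8% in mock. In each, both aphidicolin libraries lay above both mock libraries, and the mock libraries were far from each other. Osbpl7 had 94.6% and 85.7% with aphidicolin and 45.7% and 9.58% in mock. Tbc1d22a, which encodes a TBC domain protein of the kind that acts on Rab GTPases, had 100% and 79.1% with aphidicolin and 0% and 9.33% in mock, the largest difference of the 27. Cdsn, which encodes the cornified-envelope adhesion protein corneodesmosin, had 100% and 82.2% with aphidicolin and 1.25% and 35.4% in mock. Krtdap, a keratinocyte differentiation gene, had 42.0% and 72.6% with aphidicolin and 0% and 11.1% in mock, so its aphidicolin libraries were below the 78.7% and 82.7% of sperm. Dao, which encodes D-amino acid oxidase, had 100% in both aphidicolin libraries and 62.4% and 57.1% in mock. Gnat2, the cone transducin subunit, had 100% in both aphidicolin libraries and 52.9% and 38.2% in mock. Dpep1, a renal dipeptidase, had 76.5% and 100% with aphidicolin and 30.3% and 49.0% in mock.

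Other promoters showed a smaller gap or none. Tmem267, which encodes a transmembrane protein and had the most calls of the 27 (2317 to 5210 per library over 19 positions), had 75.3% and 87.6% with aphidicolin and 72.2% and 64.5% in mock, against 83.6% and 79.0% in sperm. A1cf, a cofactor of apolipoprotein B mRNA editing, had 99.2% and 100% with aphidicolin and 100% and 75.4% in mock. Emid1 had 100% in both aphidicolin libraries and 31.4% and 99.6% in mock, so 1 mock library lay just under both aphidicolin libraries and the other far below them. Coro6, a coronin family member, had 50.0% in both aphidicolin libraries and 50.0% and 39.5% in mock, against 81.0% and 83.6% in sperm. Spaar overlapped as well, with 100% and 28.8% with aphidicolin and 0% and 53.3% in mock. The 1 promoter with both aphidicolin libraries below both mock libraries was that of the predicted gene Gm29678, at 59.1% and 50.0% with aphidicolin and 71.3% and 100% in mock. Calls per library went down to 15 at a promoter, and single values are coarse there.

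**Figure D5:**
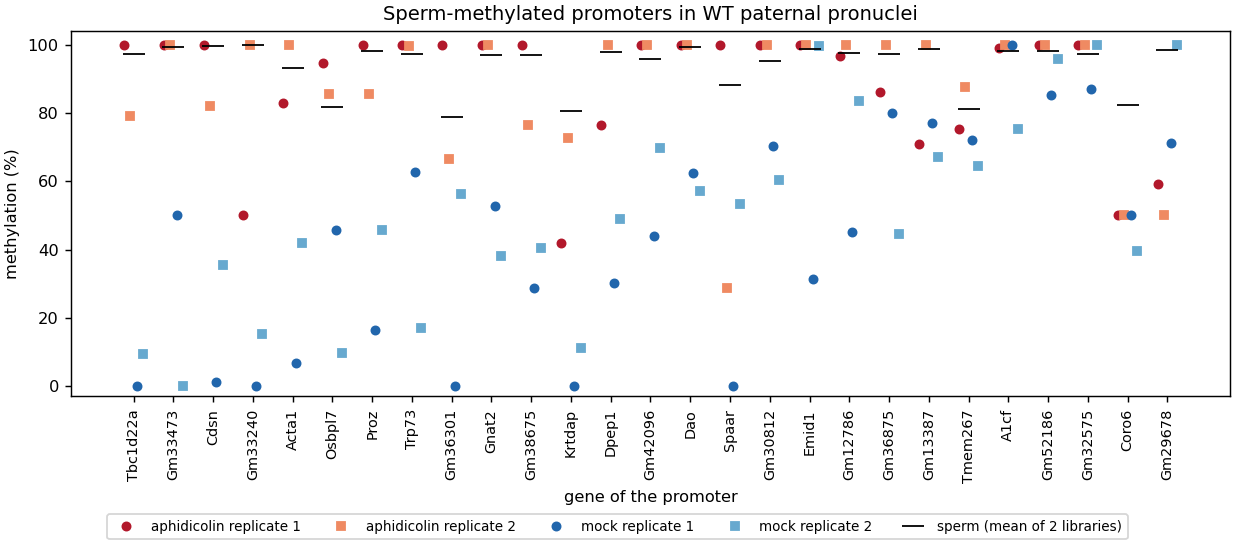
Methylation (%) of the 27 sperm-methylated promoters in each WT paternal library, ordered by the difference of aphidicolin over mock, with the sperm mean as a bar. In 21 promoters both aphidicolin points lie above both mock points.

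A quasi-binomial test of every 1000-bp tile, adjusted by Benjamini-Hochberg over all 45790, called 82 tiles higher with aphidicolin (0.179%) and 1 lower (0.00218%) where a call needs an adjusted p under 0.05 and 10 points or more between the groups. An unadjusted p under 0.05 was found in 4749 tiles, and limma on arcsine square roots called 1277 tiles higher (2.79%) and 16 lower (0.0349%). Of the 82, 75 were sperm-methylated, against 15165 of all 45790 tiles, and the 82 lay on 18 chromosomes. One of the other 7, the tile at mm9 chr14:118873001-118874000, was singled out after its values were seen. It was nearly unmethylated in sperm (0.594% and 0.187%) and in oocytes (0% and 0.232%). It had 79.4% and 99.8% with aphidicolin and 16.6% and 8.33% in mock, with an adjusted p of 0.0332 in the quasi-binomial model. CKO pronuclei had 62.7% and 4.08% with aphidicolin and 43.4% and 65.9% in mock there, and limma on arcsine square roots did not call the tile. The means of all 82 tiles were 94.2% and 97.0% with aphidicolin and 16.4% and 24.9% in mock. Replicates spread so widely that, by the fitted dispersion, the median sperm-methylated tile carried the information of 2.40 independent calls per library. In a simulation of this comparison over 45790 tiles it called 1 of 66 tiles changed by 60 points and 11 of 67 changed by 90 points, so tiles that differ by as much as the mean do were mostly out of its reach. The count depended on single libraries: 37, 7 and 18 tiles were called higher without the first or second aphidicolin library or the first mock library. In 100-bp tiles 14 of 69635 were called higher (0.0201%) and 0 lower (0.0%), with 3198 at an unadjusted p under 0.05. Of the 14, 8 were sperm-methylated, and 7 were over 10 times the median depth, against 96 of all 69635. Apart from the tile at chr11:3093401-3093500, those 7 lay between 39980801 and 39985500 on chromosome 17, at 11.0% to 26.1% in sperm. In 100-bp tiles limma on arcsine square roots called 499 higher (0.717%) and 4 lower (0.00574%). Without the first aphidicolin, the first mock or the second mock library, 1, 6 and 2 of these tiles were called higher.

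Called tiles with the largest rises had full methylation with aphidicolin and none in mock. No tile of ordinary depth was called in each fit that left out 1 library, so those named come from the fit with all libraries. The 1000-bp tile at mm9 chr1:183766001-183767000, with 8 positions, had 100% in both aphidicolin libraries (120 and 480 calls) and 0% in both mock libraries (272 and 192 calls), with an adjusted p of 0.000621 in the quasi-binomial model. Sperm had 97.5% and 98.7% there. The same 0% and 100% split held at 8 other tiles, which start at mm9 37722001 on chromosome 1, 92146001 and 165043001 on chromosome 2, 104713001 and 116334001 on chromosome 5, 86740001 on chromosome 6, 45327001 on chromosome 9 and 108809001 on chromosome 11. The tile that starts at 9039001 on chromosome 19 had 100% in both aphidicolin libraries and 0% and 1.61% in mock. These 10 tiles are extremes of a noisy distribution, and mock CKO pronuclei held between 0% and 90.9% at them.

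The named 100-bp tiles of ordinary depth gave a like split, but each lay inside a called 1000-bp tile and reuses its calls. That at 183766301 on chromosome 1 holds the same 8 positions and calls as the 1000-bp tile at 183766001 named above. These tiles are thus not a separate reading. That at mm9 chr5:66524701-66524800 had 100% in both aphidicolin libraries and 12.3% and 7.11% in mock (6 positions, adjusted p = 0.00877 in the quasi-binomial model). That at chr11:109257701-109257800 had 100% and 90.5% with aphidicolin and 0% and 11.9% in mock. Those that start at 183766301 on chromosome 1, 56591101 on chromosome 19 and 88433701 on chromosome 3 had 100% in both aphidicolin libraries and at most 28.6% in a mock library. The 1 tile called lower, at mm9 chr18:66813001-66814000, had 40.6% and 0% with aphidicolin and 77.7% and 64.9% in mock, with 53.8% and 49.5% in sperm (adjusted p = 0.0432 in the quasi-binomial model). That call was kept in 1 of the 4 fits that left out a library, and methylation fell by 30.7 to 71.3 points in these fits.

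The named tiles of very high depth, where a library's value rests on many more calls, had smaller differences than those named above. Both sets were picked for their largest differences, so they cannot show how the difference goes with depth. The 442 tiles of 1000 bp over 10 times the median depth averaged 2.92% in sperm. They had 3.73% with aphidicolin and 2.87% in mock. The tile at mm9 chr2:98506001-98507000 averaged 205575 calls per library and had 80.9% and 84.0% with aphidicolin and 55.0% and 60.1% in mock, against 81.3% and 80.4% in sperm. The adjusted p of this tile was 4.69e-130 in the quasi-binomial model, which took its dispersion from the depth trend and not from its own replicates. Its adjusted p was 0.0735 with limma on arcsine square roots, which ignores the number of calls. It was called in all 4 fits that left out a library. CKO pronuclei had 80.9% and 84.9% with aphidicolin and 57.2% and 57.6% in mock at that tile. The tile at chr14:120578001-120579000 had 76.9% and 85.4% with aphidicolin and 46.2% and 59.1% in mock. Among 100-bp tiles of this kind, chr11:3093401-3093500 had 90.7% and 93.4% with aphidicolin and 65.7% and 69.3% in mock, and chr17:39983001-39983100 had 29.3% and 18.7% with aphidicolin and 11.3% and 8.74% in mock. CKO pronuclei had 74.8% and 85.3% with aphidicolin and 51.7% and 59.5% in mock at the chr14 tile, and 84.9% and 92.3% with aphidicolin and 79.9% and 80.9% in mock at the chr11 tile. At the chr17 tile they had 25.2% and 20.6% with aphidicolin and 26.5% and 27.3% in mock. Its WT difference of 14.0 points was 8.66 to 19.3 points without single libraries, and the call was kept in 1 of those 4 fits. No annotation of mm9 was used, and whether reads of several copies fall on these tiles was not tested.

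The gap in WT paternal pronuclei was set against that of zygotes from CKO females, whose oocytes lack Tet3. Over 8412 sperm-methylated tiles read in both genotypes, the aphidicolin libraries had 92.4% and 94.3% in WT and the mock libraries 53.3% and 57.9%, a difference of 37.8 points. In CKO the aphidicolin libraries had 92.3% and 96.0% and the mock libraries 64.7% and 68.0%, a difference of 27.8 points. The aphidicolin levels of the genotypes overlapped and the mock levels did not. The WT difference exceeded the CKO difference by 9.99 points, with an exact two-sided permutation p of 0.222 for 36 arrangements of genotype within treatment, which can reach 0.056 at best. That smallest value lies above the threshold used for tiles, so no difference between genotypes could have passed, and the test cannot decide the question. Single pairs of libraries differed by 34.6 to 40.9 points in WT and by 24.2 to 31.4 points in CKO, ranges that did not overlap.

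The maternal pronuclei of the same genotype showed a smaller gap. Over 2458 tiles methylated in both gametes, WT paternal pronuclei had 93.0% and 95.0% with aphidicolin and 52.9% and 57.3% in mock, a difference of 38.9 points. WT maternal pronuclei had 95.7% and 95.3% with aphidicolin and 81.3% and 84.0% in mock, a difference of 12.8 points. The differences of single pairs of libraries ran between 35.7 and 42.1 points in paternal and between 11.3 and 14.4 points in maternal pronuclei. The paternal difference was 26.1 points larger, with an exact two-sided permutation p of 0.33 for 36 arrangements of parent labels within treatment, which can reach 0.056 at best. Shuffling labels among the aphidicolin libraries, all at 93.0% to 95.7%, hardly changes the difference. The p therefore says little about how far apart the pairs of libraries lay.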

How the data were processed

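Each deposited file lists a raw count of methylated calls and one of unmethylated calls at every CpG position, along with a percent that equals their ratio in every row. Per the submitters' processing notes, the authors used Trim Galore and Bismark 0.10.1 with the mm9 build; removal of duplicates is not given in the sources used here. The percent column deposited by the authors was used only for that check.

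Tiles needed 2 positions that each library of the 4 covered with 5 reads or more, and a tile's level is its pooled methylated share of calls. Gamete classes used at least 75% or at most 25% in both libraries of a gamete, with at least 10 calls each. Library means were compared by exact two-sided permutation. Tiles were tested with a quasi-binomial logistic model over 8 paternal pronuclear libraries in 4 groups, with dispersion from groups that expect at least 5 calls of both kinds, shrunk on a depth trend with limma 3.58.1 squeezeVar (R 4.3.3) and floored at 1, an F test and Benjamini-Hochberg adjustment. The shrinkage was complete for both tile sizes, so each tile took the dispersion of the trend and not its own. The median dispersion was 52.8 in 1000-bp tiles. Python 3.11.15, NumPy 2.4.6 and SciPy 1.17.1 did the rest.

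Named tiles were the 10 (1000 bp) or 5 (100 bp) called tiles of each direction with the largest difference, groups not overlapping, and, among tiles over 10 times the median depth, the 2 with the largest difference. Tiles called in each fit without 1 library had priority. The written design foresaw gene names only with an mm9 annotation. After the files were seen, promoters were instead matched by their CpG pattern: of 32851 RefSeq promoters, 24184 were searched, 8279 matched at least 6 cytosines with a lead of 2 over the next best place within 8 Mb, and 7957 lay within 50 kb of the shift of their neighbours. Of promoters sharing positions, the one with the most was kept. A wrong match would give a wrong gene name, not a wrong level.

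Members, gene classes and tests were chosen with earlier results of these data known. The tile test was tested on simulated data. Same-numbered replicates did not deviate together tile by tile (r = -0.000655 over sperm-methylated tiles). Single tiles are too noisy for this r to decide whether the numbers pair libraries.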

Additional observations from a re-analysis of the deposited data

How the results depend on the processing

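The means kept their direction under every alternative run. The difference of autosomal positions was 6.20 to 7.53 points, that of sperm-methylated tiles 35.2 to 39.4 and that of sperm-methylated promoters 36.8 to 44.5 when each library was left out. Requiring 20 reads per position gave 34.1 points for sperm-methylated tiles. The excess over CKO was 7.74 to 12.2 points and that over maternal pronuclei 23.9 to 28.3 points without single libraries. With the replicate block, the differences of means were the same by construction.

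Counts of called tiles depended on the settings. In 1000-bp tiles, against 82 higher and 1 lower, the 4 libraries alone gave 26 and 0, dispersion from all groups 2037 and 105, limma on arcsine square roots 1277 and 16, the replicate block 9 and 0, and tiles of 5% to 95% only 274 and 2. A floor before shrinkage, 10 reads per position and leaving out deep tiles each gave 0 lower, with 68, 61 and 63 higher. Leaving out each library gave 7 to 90 higher and 0 to 3 lower. In 100-bp tiles, against 14 higher and 0 lower, the same settings gave 8 higher for the 4 libraries alone, 2666 and 202 for all groups, 499 and 4 for limma, 5 for the replicate block and 28 for tiles of 5% to 95%. A difference of 25 points, and leaving out deep tiles, each gave 7, and single libraries left out 1 to 10. The cause of these shifts was not tested. Named tiles kept their direction in all alternatives run and often lost their call.

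Depth limits single tiles: libraries came from about 20 pronuclei and 21 PCR cycles without molecular identifiers, so reads are not independent molecules. Promoter names and their alternatives were added after the data were seen; 8 matched cytosines gave 38.3 points.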
